A study of Mus musculus with 14 samples.

Results

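Axon guidance ligands and receptors are described here in mouse tumor-derived cells. The members were all genes whose symbol names a semaphorin (Sema), a plexin (Plxna to Plxnd), a slit (Slit1 to Slit3), a roundabout receptor (Robo1 to Robo4), a netrin (Ntn1 to Ntn5) or an UNC5 receptor (Unc5a to Unc5d). The rule found 47 of 55433 genes in the RNA table, of which 44 encode proteins and 3 (Plxna4os1, Plxna4os2 and Plxna4os3) are transcripts antisense to Plxna4. Of the 47, 40 reached the minimum of 8 mean normalized counts and were tested, among 18263 tested genes in all. The same rule found 44 of 22470 gene bodies in the chromatin table.

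The cells are of the C57BL/6 strain, at passages 6 to 8, and were given a guide RNA, either the control guide, labelled sgControl, or one directed at NSD3, labelled sgNSD3. NSD3 is a methyltransferase of lysine 36 of histone H3, and its product H3K36me2 is a mark of active and intergenic chromatin. The labels name neither the tumor of origin nor the number of clones or cultures behind the cells. The 14 samples are 6 of total RNA, 3 per condition, 4 for H3K36me2, 2 for H3K27me3, the mark laid down by Polycomb, and 2 titled IgG, the chromatin samples being CUT&RUN preparations.

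Semaphorins, slits and netrins are cues that steer growing axons and migrating cells. Secreted class 3 semaphorins bind neuropilins, which signal together with plexins, whereas most membrane-bound semaphorins bind plexins directly. Slits act through roundabout receptors, and netrins through DCC or neogenin, with UNC5 proteins turning attraction into repulsion. The same families also act on blood vessels, on epithelia and on the motility of tumor cells.

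The 6 RNA libraries held 20294828 to 21863833 recovered counts. The targeted gene was not reduced in RNA. The sgControl libraries held 14568, 14402 and 14675 normalized counts of Nsd3 (mm10 chromosome 8, 25601601 to 25719667), and those labelled sgNSD3 held 21989, 22012 and 21837, always in the order of replicates 1, 2 and 3. The difference was 1.51-fold (log2 fold 0.59 ± 0.025, SE; limma adjusted p = 5.86e-14), so every direction below rests on the library labels. Pairs of sgNSD3 libraries agreed more closely than pairs of sgControl libraries. Over genes with at least 20 counts in a pair, the chi-square of counts per degree of freedom was 1.33 to 1.46 within sgNSD3, 2.9 between sgControl replicates 2 and 3, and 6.62 and 9.95 between sgControl replicate 1 and these 2. For pairs of 1 sgControl and 1 sgNSD3 library it was 7.386 to 8.32. By this value sgControl replicates 1 and 3 differed more than any pair across the conditions. The median chi-square ratio ordered the pairs otherwise. It was 1.599 to 2.304 within sgControl and 2.326 to 2.846 across the conditions. Without sgControl replicate 1, 9 members were called higher and 4 lower, and 8 of these 9 were also called higher with all libraries. Sema4f (limma adjusted p = 0.0616) and Slit1 (adjusted p = 0.0574) were no longer called, and Sema3f was gained as higher (adjusted p = 0.0283).

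Some mesenchymal markers were abundant, while most lists for other cell types held markers at 0 beside markers with counts. All 9 mesenchymal markers were tested, with 4 higher and 1 lower. Their summed level was 1011160 to 1088584 normalized counts in sgControl and 1150934 to 1160229 in the libraries labelled sgNSD3. These sums came mostly from Col1a1, Fn1 and Col1a2. Thy1 and S100a4 had sgControl means of only 58.51 and 47.59 normalized counts. Of 9 neuron markers 2 were tested, with sums of 1249 to 1290 and 1278 to 1366 normalized counts that came almost wholly from Map2, and Snap25 was at 0. Of 8 glial markers 4 were tested, with sums of 2317 to 2412 and 2343 to 2442, almost wholly Mbp. Of 8 leukocyte markers 3 were tested, with sums of 245.6 to 258.4 and 249.1 to 258.1, mostly Csf1r and Cd68, and Cd3e and Adgre1 were at 0. Some markers did move with the condition. Of 9 epithelial markers 4 were tested and 3 keratins fell (Krt14, Krt18 and Krt19), with sums of 4265 to 4826 against 3072 to 3103 normalized counts, while Epcam was at 0 and the sums came mostly from Krt19. Of 8 endothelial markers 2 were tested, with sums of 123.8 to 149.3 against 197.4 to 238.8; Kdr, a receptor for vascular endothelial growth factor, rose 1.66-fold (adjusted p = 4.68e-05) and Emcn was at 0. The part of these markers in the results below was not tested. In bulk RNA, fewer cells of a type and less RNA per cell cannot be told apart.

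Among the 40 tested members, 9 rose and 5 fell in the libraries labelled sgNSD3 at a limma adjusted p below 0.05. The members that rose were the netrins Ntn1, Ntn3 and Ntn4, the semaphorins Sema4f, Sema5a and Sema6d, Slit3, the plexin Plxna3 and the netrin receptor Unc5c. The members that fell were Sema3a, Sema3c, Slit1, Robo1 and Unc5a. These are 22.5% higher and 12.5% lower, where 5.44% of all tested genes were higher and 6.44% were lower. The median log2 fold was 0.08 over the tested members and 0.00 over all tested genes, and the median absolute log2 fold was 0.17 against 0.11. The conditions did not overlap in 15 members that were higher and 7 that were lower, where the background was 14.0% and 14.4%. Ligands and receptors are given by their own counts: of 24 tested ligands 7 rose and 3 fell, with a median log2 fold of 0.20, and of 13 tested receptors 2 rose and 2 fell, with a median of 0.01. Whether ligands and receptors differ was not tested.

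**Figure D1:**
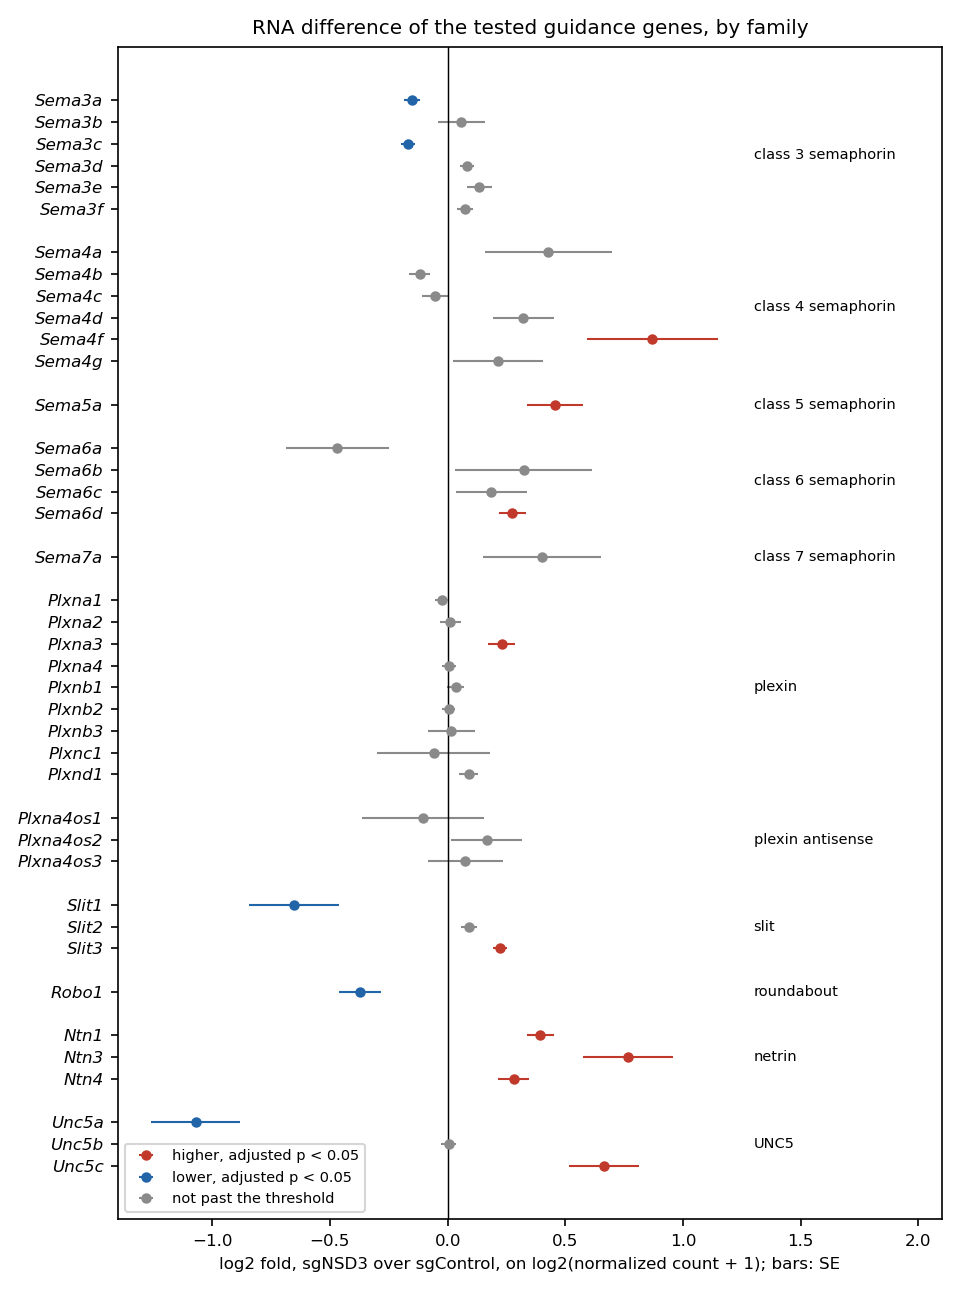
Log2 fold of every tested member (x axis, libraries labelled sgNSD3 over sgControl, on log2(normalized count + 1)), grouped by family, with bars of 1 SE from limma. Red points were higher and blue points lower at an adjusted p below 0.05, 9 and 5 genes, and grey points did not pass; 8 of the 9 plexins are grey and most sit close to 0.

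Genes with a long genomic span were called higher more often across the whole table. Of 1768 tested genes spanning at least 100 kb, 16.4% were higher and 7.81% lower. Of the tested members, 18 span at least 100 kb (104.9 to 1020 kb), and of these 6 rose and 4 fell. Of the 20 shorter ones (4.436 to 68.99 kb), 3 rose and 1 fell, and 2 members had no span in the RefSeq table. Over all tested genes of any span, the long ones included, 5.44% were higher and 6.44% lower. The share among tested genes under 100 kb was not computed, so the shorter members have no background of matching span. The part of gene span in the calls was not tested.

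Class 3 semaphorins, which are secreted and mostly bind neuropilins, gave 2 calls among 6 tested genes, both lower. Normalized counts scale with transcript length, which was not used here, so they are compared between libraries and not between genes. Sema3c, which guides neural crest cells and cortical axons, had 10977, 12006 and 12035 normalized counts in sgControl and 10450, 10372 and 10321 in the libraries labelled sgNSD3 (chromosome 5, 17574816 to 17730268). Every sgNSD3 library was below every sgControl library, and the gene was 1.12-fold lower (log2 fold -0.17 ± 0.031, SE; adjusted p = 0.000637). Sema3a, the classical collapsin that repels sensory and sympathetic axons, had 4559, 4615 and 4852 against 4288, 4250 and 4088 normalized counts (chromosome 5, 13124822 to 13603485). It was 1.11-fold lower (log2 fold -0.15 ± 0.033; adjusted p = 0.0021), again with no overlap. The other 4 tested class 3 genes were not called. Sema3d had means of 5627 ± 205 and 5952 ± 91.2 normalized counts (SD, n = 3; adjusted p = 0.0907), Sema3e 1012 ± 86.2 and 1109 ± 23.2 (adjusted p = 0.091), and Sema3f 3354 ± 110 and 3525 ± 59.3 (adjusted p = 0.17). Sema3d was called higher without sgControl replicate 3 and with quantile normalization, Sema3e without sgControl replicate 3, and Sema3f without sgControl replicate 1. Sema3b was at 156.3 ± 11.6 and 162.9 ± 15 normalized counts, and Sema3g stayed below the minimum, at 7.104 normalized counts or fewer in each library.

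The 2 class 3 genes that fell differ in the base composition before their annotated start, which is why both are printed. The sequences are the 250 bases before the annotated start on the + strand, from RefSeq on GRCm38.p6 (mm10), with each CG dinucleotide in capitals. The table gives 1 start for each gene; that of Sema3c is the start of the gene's span, whereas that of Sema3a lies 272 kb inside its span, so sequence at any other Sema3a start is not shown. The Sema3a promoter (chr5:13396534-13396783) holds 2 CG and is 40.8% G or C, and it lies at the 23.9 percentile of all promoters in the table by number of CG, with ties at their mean rank. The Sema3c promoter (chr5:17574566-17574815) holds 39 CG, is 78.4% G or C and lies at the 98.6 percentile.
Sema3a: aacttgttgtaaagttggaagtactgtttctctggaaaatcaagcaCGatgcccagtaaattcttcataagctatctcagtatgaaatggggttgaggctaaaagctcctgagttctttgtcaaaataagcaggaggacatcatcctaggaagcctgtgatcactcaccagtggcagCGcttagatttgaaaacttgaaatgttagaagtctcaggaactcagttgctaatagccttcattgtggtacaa
Sema3c: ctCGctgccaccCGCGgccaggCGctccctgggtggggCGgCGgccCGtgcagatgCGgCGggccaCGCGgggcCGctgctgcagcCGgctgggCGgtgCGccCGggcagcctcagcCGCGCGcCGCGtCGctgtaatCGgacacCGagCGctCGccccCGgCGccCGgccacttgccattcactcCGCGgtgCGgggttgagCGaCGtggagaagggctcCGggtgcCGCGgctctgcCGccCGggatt

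Membrane-bound semaphorins of classes 4 to 7 gave 3 calls among 12 tested genes, all of them higher. Sema5a, a transmembrane semaphorin with thrombospondin repeats that can attract or repel axons, had 94.01, 100.5 and 91.34 normalized counts in sgControl and 127.1, 130.4 and 135.9 in the libraries labelled sgNSD3 (chromosome 15, 32244813 to 32696341). It rose 1.38-fold, with no overlap (log2 fold 0.46 ± 0.12; adjusted p = 0.00955). Without sgNSD3 replicate 3 its adjusted p was 0.0501. Sema6d, a ligand of Plxna1 known from heart development, had 499.3, 512.9 and 564.3 against 626.3, 637.6 and 641.3 normalized counts (chromosome 2, 124089943 to 124667789). It rose 1.21-fold, and its 3 sgNSD3 libraries lay within a narrow range above all sgControl libraries (log2 fold 0.28 ± 0.058; adjusted p = 0.00206). Sema4f, a class 4 semaphorin, was a low transcript, with 12.53, 13.4 and 10.15 against 18.6, 27.81 and 22.48 normalized counts (chromosome 6, 82911884 to 82939769). It rose 1.91-fold without overlap (log2 fold 0.87 ± 0.28; adjusted p = 0.0378). The Sema4f call was lost when any library other than sgNSD3 replicate 1 was left out (adjusted p 0.0616 to 0.182).

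The remaining membrane-bound semaphorins were not called. Sema4b, the class 4 gene with the highest count, had 1075, 1014 and 1050 normalized counts in sgControl and 981.8, 925.3 and 983.4 in the libraries labelled sgNSD3 (1.09-fold lower; adjusted p = 0.0946). Sema4d, a ligand of plexin B1 known from immune and bone cells, was at 88.88 ± 7.73 and 111.9 ± 17.3 normalized counts (adjusted p = 0.128). For 3 genes with few counts the conditions did not overlap and the folds were 1.36 to 1.41, without a call. Sema6a had 37.6, 27.75 and 33.49 against 22.74, 22.05 and 25.42 normalized counts (1.41-fold lower; adjusted p = 0.18). Sema4a had 15.67, 18.18 and 12.18 against 22.74, 21.09 and 18.57 (1.36-fold higher; adjusted p = 0.348). Sema7a, a lipid-anchored semaphorin that acts through integrins, had 18.8, 18.18 and 19.28 against 25.84, 20.14 and 30.3 (1.36-fold higher; adjusted p = 0.32). Their 95% intervals were wide, from -0.93 to -0.01 for Sema6a, -0.13 to 0.98 for Sema4a and -0.11 to 0.91 for Sema7a (log2 fold). Sema4c, Sema4g, Sema6b and Sema6c were not called either, with ratios of sgNSD3 to sgControl between 0.966 and 1.29. Sema5b had 0 counts in all 6 libraries, which allows up to 3 counts, or 2.87 to 3.13 normalized counts, in each.

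Netrins, laminin-related secreted cues, rose as far as they were tested: 3 of 3. Ntn1, the founding attractant of commissural axons, had 476.3, 445 and 496.3 normalized counts in sgControl and 631.4, 614.6 and 615.9 in the libraries labelled sgNSD3 (chromosome 11, 68209364 to 68386826). It rose 1.31-fold with a wide gap between the conditions (log2 fold 0.39 ± 0.058; adjusted p = 3.64e-05). Ntn4, a netrin of basement membranes, had 401.1, 372.2 and 430.3 against 488.8, 491.9 and 480 normalized counts (chromosome 10, 93641049 to 93745972). It rose 1.21-fold, without overlap (log2 fold 0.28 ± 0.065; adjusted p = 0.00483). Ntn3 had 32.38, 27.75 and 41.61 against 57.87, 52.74 and 62.56 normalized counts (chromosome 17, 24203831 to 24209387) and rose 1.7-fold (log2 fold 0.77 ± 0.19; adjusted p = 0.00693). Without sgControl replicate 2 the Ntn3 adjusted p was 0.0502. Ntn3 overlaps the more abundant Tbc1d24, which was at 429.3 and 442.8 normalized counts (adjusted p = 0.736), and the sources used here do not give the strand of the libraries, so shared reads cannot be told apart. Ntn5 was below the minimum, at 1.955 normalized counts or fewer in each library.

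**Figure D2:**
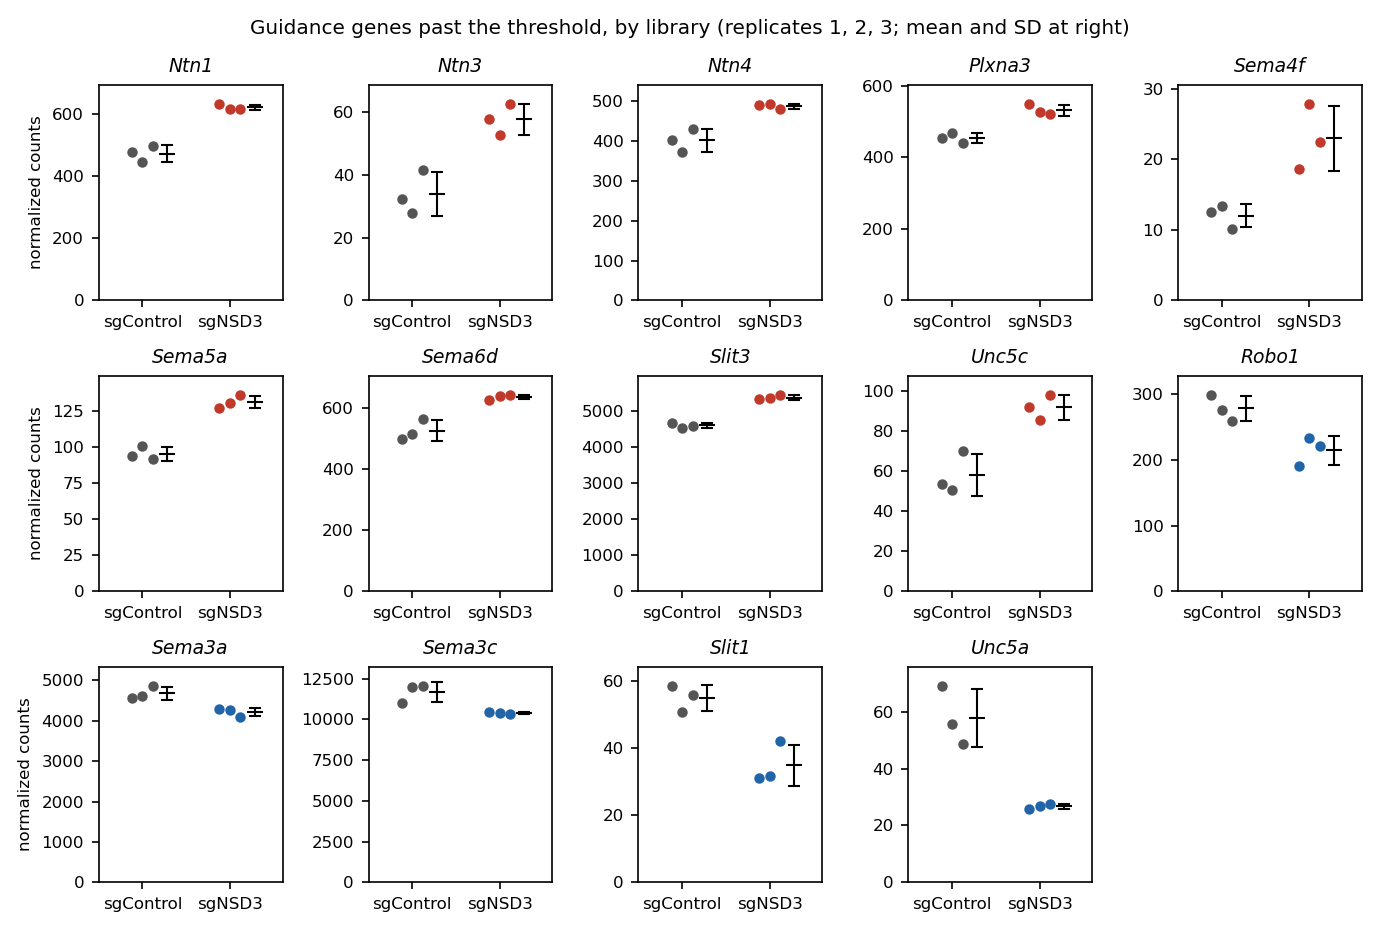
Normalized counts (y axes, each starting at 0) of the 14 called members in each library, with points for replicates 1, 2 and 3 of sgControl (dark grey) and of the libraries labelled sgNSD3 (red where higher, blue where lower), and the mean with its SD at right. The conditions do not overlap in any of the 14; in Unc5a the sgNSD3 points lie between 25.84 and 27.37, below the lowest sgControl point at 48.72.

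Of the 3 tested UNC5 receptors, which carry repulsive netrin signals, 1 fell, 1 rose and 1 was not called. Unc5a had 68.94, 55.5 and 48.72 normalized counts in sgControl and 25.84, 26.85 and 27.37 in the libraries labelled sgNSD3 (chromosome 13, 54945151 to 55006018). It fell to a lower level in each sgNSD3 library and was 2.16-fold lower (log2 fold -1.07 ± 0.19; adjusted p = 0.000387). Unc5c had 53.27, 50.72 and 70.03 against 91.98, 85.34 and 97.76 normalized counts (chromosome 3, 141465564 to 141834924). It rose 1.58-fold, also without overlap (log2 fold 0.66 ± 0.15; adjusted p = 0.00412). Unc5b, a receptor also known from blood vessels, had 11186, 10194 and 10252 against 10380, 10449 and 10871 normalized counts. Its log2 fold was within -0.06 to 0.07 (95% interval), and the conditions overlapped. Unc5d was below the minimum. The end of Unc5a overlaps Hk3, which was at 5.946 and 5.294 normalized counts.

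The promoters of the UNC5 genes that moved in opposite directions are printed together, since both are rich in CG. They are shown as above, 250 bases before the start on the + strand of GRCm38.p6, with CG in capitals. The Unc5a promoter (chr13:54949161-54949410) holds 25 CG and 5 matches, overlaps included, to the GC box GGGCGG or its complement CCGCCC, and its start lies 4.26 kb inside the gene's span. The Unc5c promoter (chr3:141465314-141465563) holds 23 CG and 0 such matches, and its start is the start of the span.
Unc5a: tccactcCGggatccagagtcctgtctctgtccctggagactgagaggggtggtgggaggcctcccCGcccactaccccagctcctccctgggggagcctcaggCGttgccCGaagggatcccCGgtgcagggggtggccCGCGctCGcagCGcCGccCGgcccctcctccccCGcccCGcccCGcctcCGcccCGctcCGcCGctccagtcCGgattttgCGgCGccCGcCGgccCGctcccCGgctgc
Unc5c: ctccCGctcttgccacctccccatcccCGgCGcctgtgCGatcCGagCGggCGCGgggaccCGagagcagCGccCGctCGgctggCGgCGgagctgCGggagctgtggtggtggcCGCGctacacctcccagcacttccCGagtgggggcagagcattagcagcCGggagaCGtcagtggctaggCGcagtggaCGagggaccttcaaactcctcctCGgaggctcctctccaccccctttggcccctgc

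Over all members, promoters were richer in CG than the table as a whole. RefSeq starts matched 36 members with 49 promoters, including 12 of the 14 called ones (Ntn1 and Slit1 had none). A GC box on either strand was found in 32 of 49 member promoters (65.3%) and in 32.7% of all 32851 promoters. The letters TATAAA or TTTATA were found in 1 (2.04%), that of Slit2, against 12.4% of all promoters. The median number of CG was 13 against 6. This background takes in promoters of 27025 genes, whether or not their RNA was tested, and a gene with several starts enters more than once. A share over tested genes only is not given here. Of the 13 promoters of called members, 8 held a GC box. These matches describe letters in the 250 bases before the start and do not show a bound site.

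Slits, secreted repellents of axons and migrating cells, split between the genes. Slit3, known from diaphragm and vessel development, had 4668, 4519 and 4585 normalized counts in sgControl and 5320, 5336 and 5428 in the libraries labelled sgNSD3 (chromosome 11, 35121456 to 35708507). The 2 sets were far apart relative to their spread, a 1.17-fold rise (log2 fold 0.22 ± 0.03; adjusted p = 6.31e-06). Slit1 had 58.5, 50.72 and 55.82 against 31, 31.64 and 42.04 normalized counts (chromosome 19, 41597824 to 41747275) and was 1.58-fold lower (log2 fold -0.65 ± 0.19; adjusted p = 0.0195). The Slit1 call was lost without sgControl replicate 1, sgNSD3 replicate 1 or sgNSD3 replicate 2 (adjusted p 0.0574, 0.0977 and 0.0943). Slit2 was at 3906 ± 43.5 and 4163 ± 213 normalized counts (adjusted p = 0.0887), was called with quantile normalization, and had the one TATA-like promoter.

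Of the 4 roundabout receptors 1 reached the minimum, Robo1, a receptor for slits. It had 298.7, 276.6 and 259.8 normalized counts in sgControl and 190.2, 233 and 221.9 in the libraries labelled sgNSD3 (chromosome 16, 72027518 to 73047491). It was 1.29-fold lower without overlap (log2 fold -0.37 ± 0.089; adjusted p = 0.00636), and without sgNSD3 replicate 1 the adjusted p was 0.0702. Robo2, Robo3 and Robo4 had at most 6.843 normalized counts in any library.

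Plexins, the large receptors that read semaphorins, gave 1 call among 9 tested genes. Plxna3, a receptor for class 3 semaphorins with neuropilins, had 453.3, 467 and 440.5 normalized counts in sgControl and 548.8, 525.5 and 521 in the libraries labelled sgNSD3 (chromosome X, 74328290 to 74344689). It rose 1.17-fold (log2 fold 0.23 ± 0.059; adjusted p = 0.0113), and without sgNSD3 replicate 1 the adjusted p was 0.0729. Plxnb2, with the highest plexin count, had 16204, 15338 and 15092 against 15449, 15619 and 15709, and its conditions overlapped. The 95% intervals of the log2 fold were narrow for the abundant plexins: -0.08 to 0.03 for Plxna1, -0.06 to 0.07 for Plxna4, -0.05 to 0.06 for Plxnb2 and -0.04 to 0.11 for Plxnb1. Plxnd1, the semaphorin receptor of vessels, was at 1753 ± 60.7 and 1864 ± 20.6 normalized counts (adjusted p = 0.134). The low Plxnc1 had an interval of -0.55 to 0.43, too wide to read a direction. The 3 antisense transcripts Plxna4os1, Plxna4os2 and Plxna4os3 were tested and not called, with ratios of 0.937, 1.13 and 1.06. Whether their reads come from Plxna4 itself cannot be told apart without the strand.

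The partner genes of the pathways were read from a list of 57 co-receptors and signalling genes, of which 51 were tested. Of these 5 rose (Nrp1, Neo1, Flrt1, Flrt2 and Farp2) and 7 fell (Nrp2, Itgb1, Met, Dpysl3, Mical1, Cfl1 and Cap1), which is 9.8% and 13.7% beside 5.44% and 6.44% of all tested genes, and the median log2 fold was 0.01. The neuropilins moved oppositely. Nrp1, which pairs with plexins to bind Sema3a, had 1504, 1557 and 1522 normalized counts in sgControl and 1789, 1765 and 1725 in the libraries labelled sgNSD3, a 1.15-fold rise (adjusted p = 0.000483). Nrp2, which binds Sema3c and Sema3f, had 2399, 2337 and 2412 against 1801, 1914 and 1840, 1.29-fold lower (adjusted p = 8.06e-08). Neither pair of sets overlapped. Of the netrin receptors, Dcc had 0 counts in all 6 libraries and Neo1, neogenin, rose 1.12-fold, from 5936, 6189 and 6325 to 6875, 6801 and 6964 normalized counts (adjusted p = 0.000481). Flrt2 and Flrt1, adhesion proteins that bind UNC5 receptors, rose 1.16-fold and 1.22-fold (adjusted p 3.13e-05 and 0.00524), and the Flrt1 call was lost without sgNSD3 replicate 2. Cfl1, the actin-severing cofilin, and Mical1, an actin oxidase downstream of plexins, were each 1.15-fold lower (adjusted p 1.15e-05 and 0.00549). By sublist, 4 co-receptor genes rose and 3 fell of 13 tested, and 1 semaphorin signalling gene rose and 3 fell of 17. Of 10 slit signalling genes 1 fell, and 0 of 11 netrin signalling genes were called. Of these 11, 1 was at an unadjusted limma p below 0.05, and 0 were at an adjusted voom p below 0.05.

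**Figure D3:**
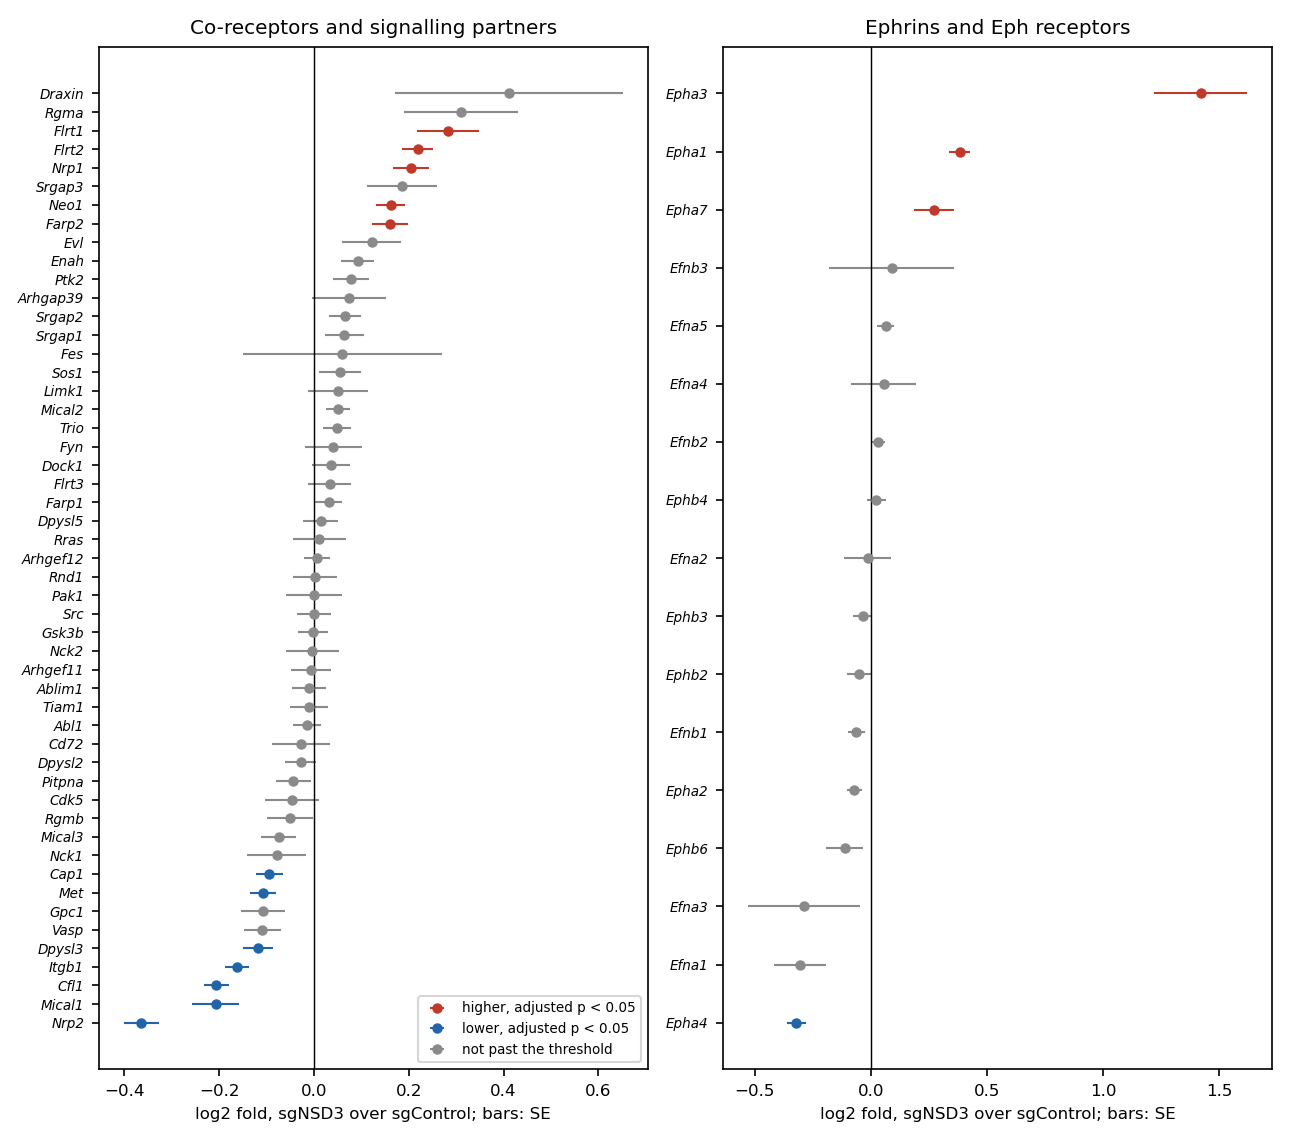
Log2 fold (x axis, libraries labelled sgNSD3 over sgControl, on log2(normalized count + 1)) of the tested partner genes (left) and of the ephrins and Eph receptors (right), in order of the fold, with bars of 1 SE. Red and blue points were higher or lower at an adjusted p below 0.05, grey points did not pass; Nrp1 and Nrp2 lie on opposite sides of 0, and Epha3 lies furthest from it.

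Ephrins and Eph receptors, the fourth classical guidance family, were read from 22 genes, of which 17 were tested; 3 rose (17.6%) and 1 fell (5.88%), beside 5.44% and 6.44% of all tested genes. Epha3 had 19.85, 21.05 and 24.36 normalized counts in sgControl and 62.01, 56.57 and 60.61 in the libraries labelled sgNSD3, a 2.75-fold rise (adjusted p = 8.65e-06). Epha1 rose 1.3-fold (adjusted p = 7.88e-07) and Epha7 1.21-fold (adjusted p = 0.0416), while Epha4 was lower by a log2 fold of -0.32 (adjusted p = 3.46e-06). The Epha7 call was lost when sgControl replicate 2 or 3, or sgNSD3 replicate 2 or 3, was left out, and without the filter on low counts. The ephrins themselves, the ligands, gave no call.

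Chromatin at the members was read from the authors' deposited scores, 1 signed value per gene body for H3K27me3 and 2 columns for H3K36me2. The column headers name the mark, and for H3K36me2 sample 1 or 2, but no condition, and both conditions hold samples with these numbers. Whether a score is a level of the mark or a difference between conditions is not stated. The scores are therefore described without error and without a direction between conditions. For H3K36me2, 43 of 44 members (97.7%) were above 0 in each column, against 89.4% and 92.4% of all gene bodies. The medians were 0.0863 and 0.146 against 0.0757 and 0.125. Gene bodies whose RNA was tested lay closer to the members, with 93.3% and 96.5% above 0 and medians of 0.0774 and 0.134. For H3K27me3, 18 of 44 members (40.9%) were above 0, against 31.5% of all gene bodies. By the mean of the 2 columns Sema3a was highest of the members for H3K36me2, at 0.36 and 0.286 (percentiles 99.9 and 94.5), followed by Sema7a (0.0775 and 0.299, the highest in the second column) and Ntn5 (0.116 and 0.257). The lowest mean H3K36me2 scores were those of Plxnb1 (-0.0631 and 0.145), Plxnb3 (0.0643 and 0.0373) and Robo2 (0.000473 and 0.147).

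The 3 highest H3K27me3 scores were at members with sgControl RNA means of at most 55.01 normalized counts. So were 2 of the 3 lowest. These counts are not corrected for transcript length. Robo2, Slit1 and Sema4f had the highest scores, 0.193, 0.14 and 0.129 (percentiles 97.2, 94.6 and 93.4), and their sgControl RNA means were 3.423, 55.01 and 12.03 normalized counts. Plxnc1, Sema6a and Sema4c had the lowest, -0.235, -0.228 and -0.185 (percentiles 1.4, 1.5 and 2.9), with RNA means of 25.31, 32.95 and 656.9. Of the 7 members below the RNA minimum, 4 were above 0, against 51.3% of all gene bodies whose RNA was below it and 18.1% of those whose RNA was tested. Among the members that rose in RNA, 5 of 9 were above 0 for H3K27me3, among those that fell, 2 of 5, and among those tested but not called, 7 of 23. For H3K36me2, all 5 members that fell were above the column median in the second column and 3 in the first, and of the 9 that rose 3 and 5. Of the 23 tested members without a call, 14 were above it in the second column and 15 in the first. The same held for 7084 and 6911 of the 12615 gene bodies whose RNA was tested. The counts are small, the 2 columns rank members differently, and no difference was tested.

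**Figure D4:**
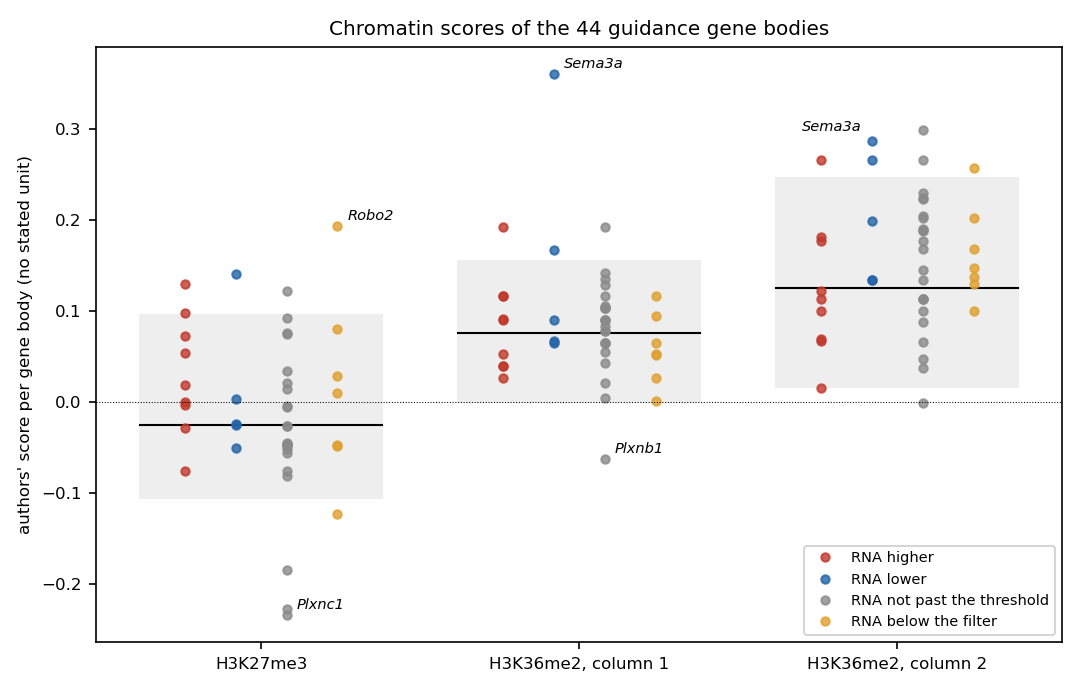
The authors' deposited gene-body scores (no unit given) of the 44 members in the H3K27me3 column and both H3K36me2 columns, with the call in RNA by colour; the line and the grey band mark the median and the span from the tenth to the ninetieth percentile of all gene bodies. Almost all members lie above 0 in both H3K36me2 columns, as do most of all gene bodies. Among the members, Sema3a is highest in the first H3K36me2 column, and Robo2 is highest for H3K27me3.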

How the data were processed

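Total RNA of 6 libraries was read from a table that the authors deposited on a log2 scale; HISAT2, featureCounts and DESeq2 with the mm10 build are named in the submitters' processing notes, with no versions or settings. The floor of 8.45 and whole-number steps (within 0.05 of a whole number for 100% of values) place the table on the scale of the variance-stabilising transform of the authors' DESeq2; inverting it gave normalized counts. The CUT&RUN table holds a signed score for each gene body, deposited by the authors, whose reference is not stated, so they were not tested. There were 0 other value columns. The RNA samples carry the chromatin extraction text, so how their libraries were made is not known here. The sgNSD3 numbers 1, 2 and 3 follow the titles, and their columns are numbered 3, 1 and 2. The 2 IgG samples were not used; both list the H3K36me2 antibody, and the source of the one titled sgNSD3 reads sgControl.

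The test was limma (version 3.58.1, under R 4.3.3; lmFit, then eBayes with its trend option) on the deposited log2 values of all genes with a mean of at least 8 normalized counts, with Benjamini-Hochberg adjustment at 0.05. The code was run on simulated data with the same spread in every library, where only genes with a mean of at least 32 normalized counts were changed. That run therefore does not cover the unequal spread of these libraries or genes with lower counts. Folds are ratios of mean normalized counts; log2 folds and their SE were fitted by limma to log2(normalized count + 1), a scale that understates changes of low genes. No pair of libraries agreed as closely as counting error alone, so none was merged, but nothing says that they came from separate cultures, so p-values may measure technical spread only. Values in every library are given for called members, for the highest of each family and for uncalled ones that did not overlap and passed a minimum fold; of the partner and ephrin lists the largest called changes, the neuropilins, Dcc and Neo1; of the scores the 3 highest and lowest. Members, lists and tests were chosen with earlier results of these data known. Alternatives were log2(count + 1), voom, quantile normalization, no filter or 32 counts, no trend, a replicate block, other pseudocounts and leaving out each library.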

Additional observations from a re-analysis of the deposited data

How the results depend on the processing

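Members called higher were 7 to 10 and members called lower 3 to 5 when each library was left out in turn, against 9 and 5 with all of them. In each of these runs 7 or 8 of the members called higher were among those 9. The count of 3 came without sgNSD3 replicate 1, where Robo1 and Slit1 were lost. Partner genes called higher were 4 to 7 and called lower 4 to 8 in the same runs, against 5 and 7, and the 4 lower came without sgNSD3 replicate 1 or 3. Leaving out an sgNSD3 library also reduced the calls over all genes, to 641 to 658 higher and 707 to 774 lower. With a replicate block, 10 members were higher and 5 lower by title numbers and 9 and 5 by column numbers. Deviations of same-numbered samples correlated weakly (-0.01 to 0.05 by title and -0.07 to -0.01 by column), and not every sample correlated best with its own number. With 3 samples per condition, this cannot settle whether the numbers pair the samples. Over all genes, 1119 were higher and 1333 lower with the block by title numbers. By column numbers these were 919 and 1086, and without a block 994 and 1176. The other settings gave 8 to 10 higher and 5 lower. With quantile normalization, 8 of the 10 higher were among the 9 called in the main run. Ntn1, Ntn4, Sema3a, Sema3c, Sema6d, Slit3, Unc5a and Unc5c kept their call in all 16 alternatives, and none of the 17 named members reversed. Sema4f also lost its call with quantile normalization (adjusted p = 0.0546) and with no filter (adjusted p = 0.0782). Sema3e was called higher with the replicate block by title numbers (adjusted p = 0.0474), and Epha7 was not called with the block by column numbers (adjusted p = 0.0527). Standard errors of the log2 fold were larger at low counts, 0.28 for Sema4f against 0.03 for Slit3; the cause of the lost calls was not tested.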

Other observations

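The 2 H3K36me2 columns disagreed for single members. Ntn1 scored 0.192 in the first and 0.0147 in the second (percentiles 95.4 and 10), and Sema3b 0.192 and -0.00115 (percentiles 96 and 5). Of 44 members, 15 were above the median of both columns, 6 at or below both, and 23 above 1 only. Sema3d, Sema3a and Sema3e follow each other along chromosome 5 (from 12383161, 13124822 and 14025276), and in RNA the middle one was 1.11-fold lower while its neighbours were at folds of 1.06 and 1.1 without a call; whether the 3 differ was not tested.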
